A study of Homo sapiens with 6 samples.

Results

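Control SK-N-BE(2) cells are described here by the transcripts they held and by those they did not. SK-N-BE(2) is an established human neuroblastoma line whose genome carries many extra copies of the oncogene MYCN. The members were chosen by label alone: the 2 libraries titled shControl (treatment shNC), replicates 1 and 2, of 6 libraries in the series. The other 4 libraries carry hairpins against BCAT1 and were not compared with these. Both control libraries come from cells that carry a control short hairpin RNA, so they stand for handled cells and not for the unmodified line. They represent 1 cell line in culture, and the labels do not say whether the replicates were separate cultures, so an SD over n = 2 may be technical. How RNA was selected, whether strand was kept and what medium the cells grew in were not given in the sources used here.

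Neuroblastoma arises from the sympathoadrenal branch of the neural crest, the embryonic cells that become sympathetic neurons and the chromaffin cells of the adrenal medulla. A core set of transcription factors, PHOX2A, HAND2, GATA3, ISL1 and TBX2 among them, marks the adrenergic state of these tumours, and a separate set that includes the AP-1 factors, TWIST1 and SNAI2 marks a mesenchymal state. MYCN is a basic helix-loop-helix factor that pairs with MAX, and BCAT1 is the cytosolic aminotransferase that moves nitrogen from branched-chain amino acids to alpha-ketoglutarate.

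The libraries held 39321388 and 38588163 counts, and 25342 and 25373 genes had at least 1 count. Levels are in CPM, each gene's counts scaled by its library's total with no other normalization, and levels of different genes are compared as CPM per kilobase of merged exons in GENCODE release 29, except where a rank by CPM is named as such. A gene is called detected at 1 CPM or more in both libraries, and barely read at 3 counts or fewer in each. Of 19657 protein-coding genes, 12003 (61.1%) were detected, 4846 (24.7%) were barely read and 2808 lay between, and 3820 of the barely read had 0 counts in both libraries. A gene with 0 counts could still have had up to 0.0763 CPM in the first library and 0.0777 CPM in the second, the limit that 3 counts allow for counting error alone. Reads without molecular identifiers are not independent molecules, and rows with 2 counts (1787 and 1848) outnumbered those with 3 (921 and 886). Whether both reads of a pair were counted is unknown here.

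**Figure D1:**
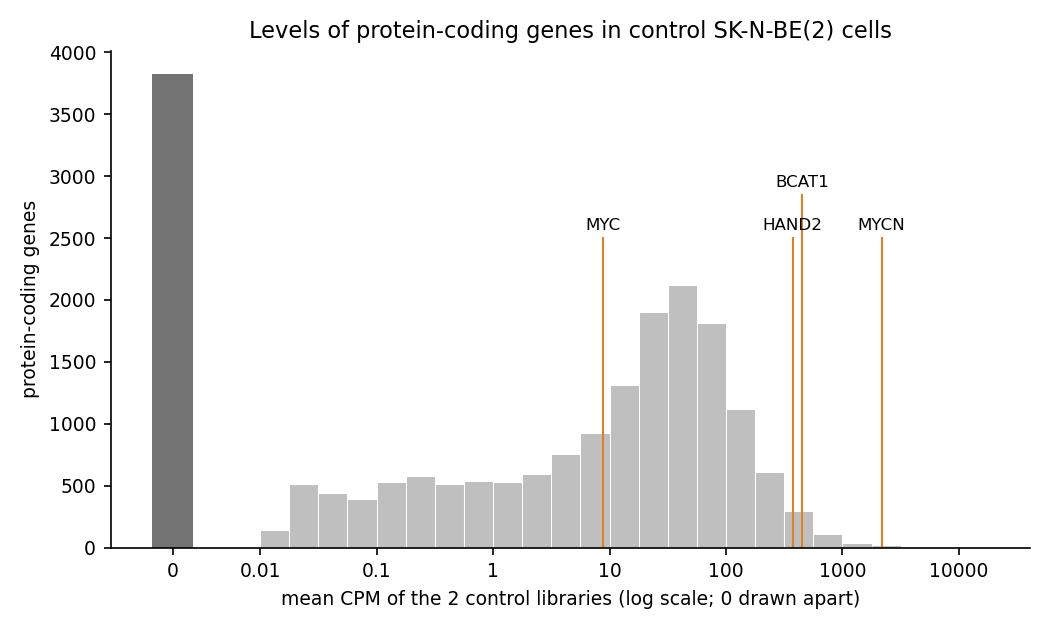
Number of protein-coding genes (vertical axis) by mean CPM of the 2 control libraries (horizontal axis, log scale), with the 3820 genes at 0 drawn as a separate dark bar. Orange lines mark single genes: MYCN at 2171 CPM lies in the thin right tail, BCAT1 at 449 and HAND2 at 375 CPM lie above most genes, and MYC lies at 8.83 CPM.

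Most protein-coding genes that were read lay at moderate levels. Of 12171 with a mean of 1 CPM or more, the mean was 1000 CPM or more in 74, from 100 to 1000 CPM in 2136, from 10 to 100 CPM in 7149 and from 1 to 10 CPM in 2812. The 100 most abundant genes took 18.6% and 18.8% of all counts, and the 1000 most abundant took 49.9% and 50.0%. By CPM the 10 leading rows were EEF1A1, MT-CO1, GAPDH, ACTB, VIM, MT-RNR2, ENO1, MT-CO3, RPS2 and ACTG1, which serve translation, respiration, glycolysis and the cytoskeleton. EEF1A1, the elongation factor that brings aminoacyl-tRNA to the ribosome, was read at 10225 and 9684 CPM. Of the 100, 22 encode ribosomal proteins, 9 come from the mitochondrial genome, 6 are glycolytic, 6 are heat shock proteins, 4 are actins or tubulins, 4 are elongation or initiation factors and 49 fall in none of these classes. MYCN stands among those 49.

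MYCN was the 23rd of 19657 protein-coding genes, both by CPM and by CPM per kilobase. MYCN (ENSG00000134323, chr2:15940564-15947007, plus strand, hg38) was read at 2165 and 2178 CPM, from 85124 and 84040 counts. Both libraries gave nearly the same level, 834 ± 3.54 CPM per kilobase (SD, n = 2). Exons of the antisense gene MYCNOS cover 3.8% of MYCN exon bases, and reads of the overlap cannot be told apart without strand. MYCNOS itself was read at 46.1 and 43.5 CPM.

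The other members of the MYC family were far below. MYC, the founding member, was read at 9.26 and 8.4 CPM and MYCL at 0.458 and 0.544 CPM. MYCN therefore took 99.6 and 99.7% of the summed CPM per kilobase of the 3 genes, and stood 270 and 299 times above MYC on that scale. MAX, the shared partner without which these factors do not bind their sites well, was read at 74.9 and 78.2 CPM. In CPM per kilobase MAX stood at 17.3, next to MYCN at 834. The MAX partners that oppose MYC were also read: MXD4 at 88.7 and 80.7 CPM, MXD3 at 29.7 and 23.7 CPM, MXI1 at 24 and 26.9 CPM, MNT at 21 and 21.8 CPM and MXD1 at 7.07 and 8.01 CPM. MGA, which joins MAX to a T-box domain, was at 47.1 and 47.4 CPM and MLX, the partner of the glucose-sensing Mondo factors, at 134 and 135 CPM. Of the 13 genes of this network, 11 (84.6%) were detected, against 61.1% of all protein-coding genes. MYCL and the liver-type sugar sensor MLXIPL, with 9 and 5 counts, were not.

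Genes near MYCN on the short arm of chromosome 2 can share its amplified segment. Of 12 listed genes of that arm, 9 (75%) were detected, against 61.1% of all protein-coding genes. ODC1, the first enzyme of polyamine synthesis and a textbook MYC target, was read at 399 and 392 CPM. DDX1, an RNA helicase gene close to MYCN, was read at 212 and 215 CPM, and its neighbour NBAS at 32.1 and 32.2 CPM. In CPM per kilobase these were 133, 55.7 and 3.59, all under the 834 of MYCN. TRIB2, a pseudokinase, was at 113 and 114 CPM, while CYRIA was at 0.356 and 0.285 CPM and the non-coding MYCNUT had 0 counts in both libraries. SMC6, of the SMC5/6 complex, was at 42 and 47 CPM. Copy number was not measured by these data, so whether ODC1 or any other listed gene lies in the amplified segment is not known here.

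The core adrenergic factors were read together, in both libraries. Of 20 listed adrenergic transcription factors 17 (85%) were detected, against 61.1% of all protein-coding genes, and the list's median of 15 CPM per kilobase compares with 1.45 over all protein-coding genes. PHOX2A, the homeodomain factor that drives the noradrenergic programme, was read at 550.2 and 503 CPM. HAND2, a basic helix-loop-helix factor needed for sympathetic neurons, was read at 382 and 368 CPM (ENSG00000164107, chr4:173524969-173530229, minus strand, hg38). TBX2, a T-box repressor, was read at 367 and 350.1 CPM. Per kilobase the order was PHOX2A at 295 ± 18.6, HAND2 at 104 ± 2.7 and TBX2 at 59.5 ± 2.04 CPM (SD, n = 2), and the libraries' ranges of these 3 did not overlap. Exons of HAND2-AS1 cover 24.1% of HAND2 exon bases, and that antisense RNA was itself at 105 and 111 CPM.

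The remaining core members followed. GATA3 and GATA2, zinc finger factors of sympathetic development, were read at 146 and 148 and at 146 and 145 CPM. ISL1, a LIM homeodomain factor, was read at 86.8 and 94.3 CPM. TFAP2B was at 105 and 105 CPM, SOX4 at 232 and 241 CPM, SIX3 at 34.2 and 31.6 CPM and SOX11 at 15.8 and 16 CPM. Of the adrenergic neuroblast markers chosen for this description, PHOX2A, HAND2, GATA3, ISL1, TH and DBH were all detected. Markers chosen for other types were detected too, 6 of 7 for the mesenchymal state and 4 of 5 for fibroblasts. Of the marker genes named with these cells, HAND2 ranked 350th and BCAT1 1221st of the protein-coding genes per kilobase.

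A few members of the adrenergic list stood apart by their low levels. INSM1, a zinc finger factor of neuroendocrine cells, had 0 counts in both libraries. ZNF536 was read at 0.356 and 0.389 CPM.

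Most paralogue families among these factors had a clear leader. ISL1 took 99.6 and 99.8% of the summed CPM per kilobase of ISL1 and ISL2. TFAP2B took 96 and 95.9% of the AP-2 family's sum, in which TFAP2A, the neural crest and epithelial member, had 3 and 6 counts. GATA3 and GATA2 were closer, with 54.7 and 55.1% and 42.1 and 41.5% of the GATA family's sum in the order of the libraries. HAND1, known from heart and placenta as well as from sympathetic cells, was read at 475 and 504 CPM. Per kilobase HAND1 stood 2.58 and 2.84 times above HAND2, and took 72 and 73.9% of the pair's sum. 

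The promoters of these leading factors are shown with that of a receptor gene that had 0 counts, MET, so that their base composition can be set side by side. Each run is 300 bases of RefSeq sequence on GRCh38.p14, from 250 bases before to 50 after the RefSeq start, 5′ to 3′ on the gene's strand. Capitals mark matches, on either strand, to the GC box GGGCGG, the CCAAT box CCAAT, the TATA box TATAAA, the E-box CACGTG that MYC and MAX bind, the homeodomain core TAATTA and the GATA site AGATAA. The MYCN window is chr2:15940300-15940599 on the plus strand, the HAND2 window chr4:173530180-173530479 on the minus strand, the HAND1 window chr5:154478178-154478477 on the minus strand, the PHOX2A window chr11:72244127-72244426 on the minus strand and the MET window chr7:116671946-116672245 on the plus strand.
MYCN: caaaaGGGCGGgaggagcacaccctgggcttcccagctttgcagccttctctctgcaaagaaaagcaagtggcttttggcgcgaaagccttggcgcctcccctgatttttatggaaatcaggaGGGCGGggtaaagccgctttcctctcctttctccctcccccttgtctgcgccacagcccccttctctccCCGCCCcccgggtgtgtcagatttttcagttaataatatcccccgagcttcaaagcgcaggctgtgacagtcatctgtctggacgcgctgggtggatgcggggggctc
HAND2: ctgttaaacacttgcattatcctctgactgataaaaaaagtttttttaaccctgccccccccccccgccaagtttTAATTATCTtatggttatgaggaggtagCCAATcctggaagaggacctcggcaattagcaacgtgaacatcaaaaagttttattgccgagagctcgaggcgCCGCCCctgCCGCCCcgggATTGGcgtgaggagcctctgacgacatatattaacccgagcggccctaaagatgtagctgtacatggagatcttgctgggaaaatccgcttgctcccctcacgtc
HAND1: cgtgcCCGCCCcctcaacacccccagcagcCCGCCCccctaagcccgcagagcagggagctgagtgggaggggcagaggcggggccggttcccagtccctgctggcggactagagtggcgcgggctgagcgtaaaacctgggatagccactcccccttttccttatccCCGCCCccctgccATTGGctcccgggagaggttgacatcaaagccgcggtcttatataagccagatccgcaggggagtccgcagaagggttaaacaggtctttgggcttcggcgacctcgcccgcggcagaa
PHOX2A: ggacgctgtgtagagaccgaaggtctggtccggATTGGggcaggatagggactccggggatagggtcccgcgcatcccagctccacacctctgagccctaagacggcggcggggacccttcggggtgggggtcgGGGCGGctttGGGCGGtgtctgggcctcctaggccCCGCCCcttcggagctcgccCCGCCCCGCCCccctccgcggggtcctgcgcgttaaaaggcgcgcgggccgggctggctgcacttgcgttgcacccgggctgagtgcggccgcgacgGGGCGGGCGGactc
MET: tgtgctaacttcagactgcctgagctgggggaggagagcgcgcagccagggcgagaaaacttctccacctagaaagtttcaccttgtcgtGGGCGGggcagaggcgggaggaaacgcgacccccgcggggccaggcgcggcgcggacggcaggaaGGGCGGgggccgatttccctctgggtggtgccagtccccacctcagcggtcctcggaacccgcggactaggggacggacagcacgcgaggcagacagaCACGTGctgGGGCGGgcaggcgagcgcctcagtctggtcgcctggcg

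The window of PHOX2A held 7 GC boxes, and those of MYCN, HAND1 and MET held 3 each. HAND2 held 2 GC boxes, 2 CCAAT boxes and an overlapping homeodomain core and GATA site, the joint TAATTATCT in its run. The E-box CACGTG was in the MET window, after the start, and in none of the other 4. None of the 5 held TATAAA. Over all 35116 promoters of the table, 45.0% held GGGCGG, 34.6% CCAAT, 11.5% TATAAA, 7.26% CACGTG, 4.84% TAATTA and 10.3% AGATAA. CG dinucleotides numbered 14 in MYCN, 15 in HAND2, 21 in HAND1, 34 in PHOX2A and 30 in MET, against a median of 14 over all promoters. The unread MET thus had more CG dinucleotides in its window than MYCN, HAND2 and HAND1, and fewer than PHOX2A. A match is a description of the sequence and not evidence of binding.

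Mesenchymal factors had a lower list median per kilobase than the adrenergic ones. Of 20 listed factors, 14 (70%) were detected, near the 61.1% of all protein-coding genes, with a list median of 3.97 CPM per kilobase beside 1.45 over all. The AP-1 members FOSL2, JUN and FOSL1 were at 157 and 168, at 110.3 and 99.5 and at 52 and 53.4 CPM. TWIST1 and SNAI2, factors of mesenchymal transition, were at 56.9 and 64.7 and at 56.7 and 54.9 CPM. Per kilobase TWIST1 at 28 and 31.8 and JUN at 31.2 and 28.1 CPM had the highest means of the list, below PHOX2A, HAND2, TBX2, SOX4, GATA3 and GATA2 in both libraries. Their ranges overlapped each other and that of ISL1, at 30.1 and 32.7 CPM per kilobase, so these 3 cannot be ordered. YAP1, the growth-control coactivator, was at 9.03 and 8.14 CPM, and its paralogue WWTR1 at 60.7 and 61.3 CPM. PRRX1, a homeobox factor that is often used as the mesenchymal marker, had 10 and 8 counts, and MEOX2 had 0. In bulk RNA, a few cells of a second state and a low level in every cell cannot be told apart.

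Early neural crest factors were divided. Of 15 listed, 7 were detected (46.7%, against 61.1% of all protein-coding genes), 6 were barely read and 2 lay between. ETS1 was at 199 and 201 CPM, MSX2 at 76.2 and 75.9 CPM and SOX9, a factor of crest specification and of cartilage, at 44.8 and 46.8 CPM. The homeobox factor MSX1 was at 30.4 and 30.8 CPM and SNAI1, a relative of SNAI2, at 14.4 and 16.2 CPM. SOX10, FOXD3, PAX7 and ZIC1, which mark crest progenitors and their glial descendants, had 0 counts in both libraries, and PAX3 had 0 and 2. SOX5 had 3 and 0. Of 12 Schwann cell and melanocyte markers, 3 (25%) were detected. TYRP1, an enzyme of melanin synthesis, was at 24.5 and 28.8 CPM, whereas the melanin enzyme TYR and the melanosome protein MLANA had 0 counts. MITF, the master factor of melanocytes, was at 4.58 and 5.93 CPM, while the melanosome protein PMEL was below 1 CPM, at 0.458 and 0.803 CPM. The glial cadherin CDH19 and the myelin protein PMP2 had 0 counts and S100B had 0 and 2.

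**Figure D2:**
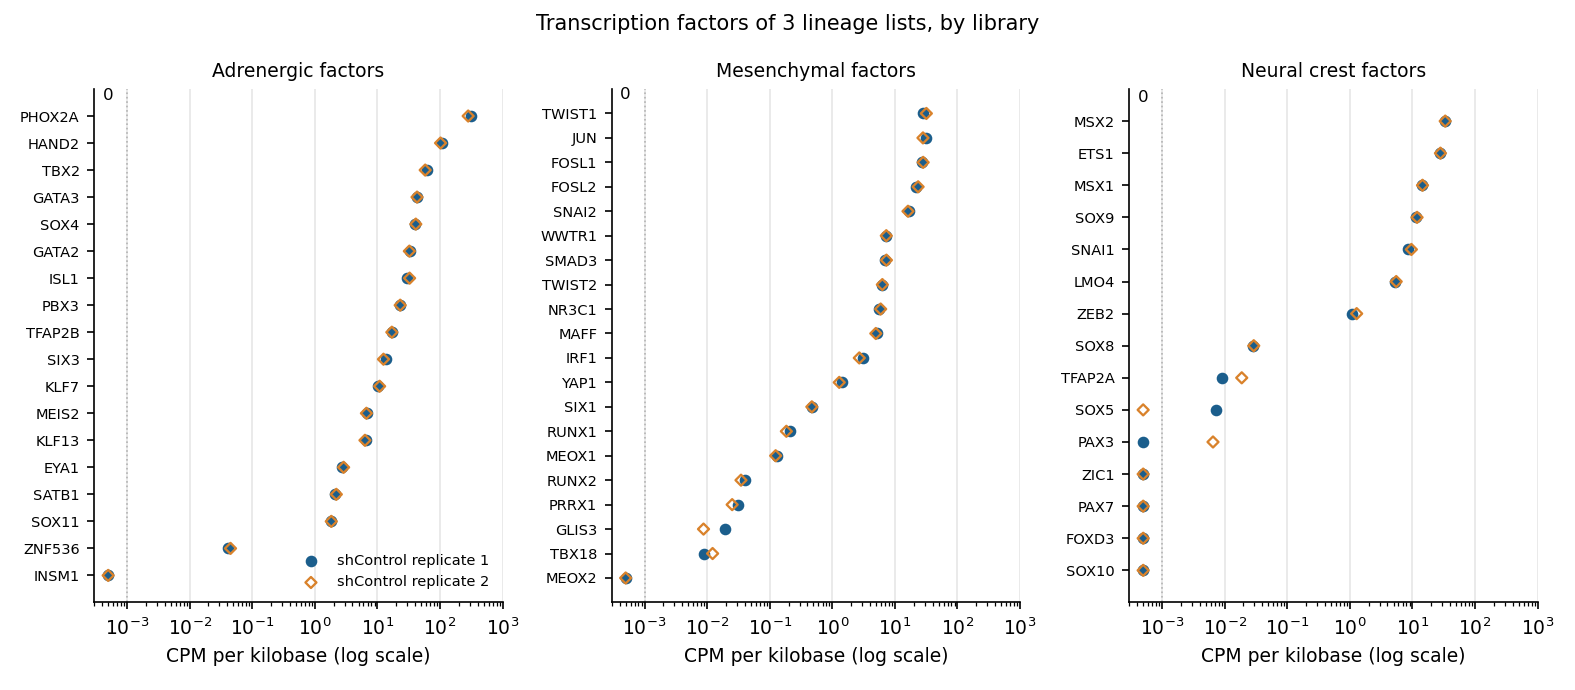
CPM per kilobase (horizontal axis, log scale) of listed adrenergic, mesenchymal and neural crest transcription factors in shControl replicate 1 (filled circles) and replicate 2 (open diamonds); symbols left of the dotted line stand for 0 counts. PHOX2A at 295 and HAND2 at 104 CPM per kilobase lie right of every mesenchymal and neural crest factor, and INSM1, MEOX2, SOX10, FOXD3, PAX7 and ZIC1 lie at 0 in both libraries.

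The enzymes of catecholamine synthesis were all read except the last. TH, which makes DOPA from tyrosine and sets the rate, was at 27.1 and 26.2 CPM. DDC, which makes dopamine from DOPA, was at 909.6 and 884 CPM and stood 34.7 and 34.9 times above TH per kilobase. DBH, which makes noradrenaline, was at 36.8 and 35.4 CPM, and PNMT, which makes adrenaline, had 14 and 5 counts. GCH1, which makes the cofactor of TH, was at 23.3 and 24.6 CPM. CYB561, which returns electrons to ascorbate for DBH in granules, was at 78.4 and 76.7 CPM. In CPM per kilobase DDC stood at 286, far above its neighbours in the pathway, TH at 8.22 and DBH at 9.55.

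Packaging, uptake and breakdown were covered unequally. The vesicular transporters SLC18A1 and SLC18A2, which load amines into granules, were at 3.74 and 2.67 and at 0.814 and 0.674 CPM. The noradrenaline transporter SLC6A2, which takes up the imaging agent MIBG, was at 19.9 and 19 CPM, and the dopamine transporter SLC6A3 had 1 and 0 counts. Of the breakdown enzymes, MAOA was at 244 and 252 CPM, while MAOB had 2 and 2 counts. Of the 13 catecholamine genes 9 (69.2%) were detected, near the 61.1% of all protein-coding genes. Among 5 cholinergic genes, the vesicular acetylcholine transporter SLC18A3 was at 28.1 and 24.5 CPM, although CHAT, the enzyme that makes acetylcholine and whose gene holds SLC18A3 in its first intron, had 4 and 0 counts and the choline transporter SLC5A7 had 0. ACHE, which breaks acetylcholine down, was at 6.89 and 5.73 CPM and BCHE had 11 and 6 counts.

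Several granule genes were read at high levels, and the processing enzymes were not all detected. SCG2, a granin of dense-core vesicles, was read at 908 and 899 CPM, VGF at 479 and 446 CPM, CHGA at 177 and 199 CPM and CHGB at 124 and 121 CPM. The neuropeptide galanin (GAL) was at 432 and 439 CPM, and per kilobase GAL at 335 ± 4.11 and SCG2 at 332 ± 2.29 CPM (SD, n = 2) led the list. NPY, a peptide of many sympathetic cells, was at 3.92 and 3.32 CPM. PAM, which amidates peptides, was at 552 and 547 CPM and carboxypeptidase E (CPE) at 46.6 and 45.8 CPM. Of the prohormone convertases that cut peptides in granules, PCSK1 was at 0.687 and 0.648 CPM and PCSK2 had 0 counts. The peptide genes TAC1, SST and ADCYAP1 had 0 counts too. In all, 12 of 20 granule genes (60%) were detected, near the 61.1% of all protein-coding genes. The 4 with 0 counts (20%) were also near the share over all protein-coding genes, 19.4% at 0 in both libraries.

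Neuronal structural genes were read almost throughout, with a list median of 13.8 CPM per kilobase. Of 25 listed, 23 (92%) were detected, against 61.1% of all protein-coding genes. TUBB3, the neuronal tubulin, was at 724 and 668 CPM, MAP1B at 604 and 652 CPM and the deubiquitinase UCHL1 at 452 and 461 CPM. The intermediate filaments of peripheral neurons included PRPH at 401 and 386 CPM, NEFM at 281 and 275 CPM and NEFL at 84.1 and 90.1 CPM. The heavy neurofilament NEFH was at 212 and 202 CPM. DCX, a microtubule protein of migrating neurons, had 12 and 8 counts, and STMN4 was at 0.661 and 0.57 CPM. RBFOX3, the nuclear antigen of mature neurons, differed more between libraries than most listed genes, at 1.3 and 2.67 CPM.

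Most matrix and fibroblast markers were read. Of 16 listed, 14 (87.5%) were detected, against 61.1% of all protein-coding genes, with summed levels of 10833 and 10804 CPM, of which vimentin (VIM) gave 5434 and 5381 CPM. The list's median was 22.1 CPM per kilobase, beside 15 for the adrenergic factors and 1.45 over all protein-coding genes. SPARC, a matrix glycoprotein, was at 2116 and 2190.4 CPM, the hyaluronan receptor CD44 at 1132 and 1134 CPM and the surface glycoprotein THY1, which neurons also carry, at 610.1 and 631 CPM. Collagens included COL5A1 at 576 and 543 CPM and COL1A1 at 236 and 208 CPM. The 2 chains of type I collagen were not read alike: COL1A2 was at 0.534 and 0.337 CPM. Per kilobase COL1A1 stood 501 and 701 times above COL1A2. Lumican (LUM), a proteoglycan that orders collagen fibrils, was at 193 and 204 CPM. POSTN, a matrix protein of activated fibroblasts, had 0 counts in both libraries, so the list's members did not all follow a fibroblast pattern.

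Most markers of blood, endothelial and epithelial cells were not detected, with exceptions such as CD68 and EMCN. Over all protein-coding genes the detected share was 61.1%. Of 15 blood markers CD68, at 35.9 and 32.6 CPM, and CD14, at 4.65 and 3.27 CPM, were detected; CD68 is a lysosomal protein found in many cells. PTPRC, the pan-leukocyte marker, was at 0.356 and 0.311 CPM, and CD3E, MS4A1, LYZ, HBB and TYROBP had 0 counts. The integrin ITGAM was at 0.509 and 0.752 CPM, and the near-identical globin genes HBA1 and HBA2 had 3 and 5 and 3 and 6 counts. Of 10 endothelial markers 3 were detected, EMCN at 55.1 and 58.1 CPM, VWF at 6.28 and 6.45 CPM and EGFL7 at 1.6 and 1.61 CPM, while PECAM1 had 2 and 0 counts and CLDN5 had 0. ESAM was at 0.992 and 0.907 CPM and CDH5, the cadherin of vessel walls, had 8 and 13 counts. Of 13 epithelial markers 5 were detected, among them KRT19 at 10.1 and 8.32 CPM and EPCAM at 3.53 and 3.45 CPM, and CDH1, the epithelial cadherin, had 0 counts. KRT18 was at 3.71 and 5.57 CPM, MUC1 at 2.16 and 2.28 CPM and CLDN3 at 0.509 and 0.466 CPM. KRT5 and the splicing factor ESRP1 had 0 counts, and CLDN7 had 3 and 0. Summed levels were 42.1 and 37.9 CPM for the blood list, 64.5 and 67.8 CPM for the endothelial list and 23.9 and 23.8 CPM for the epithelial list.

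Brain glial and forebrain markers were also detected in a minority of cases. Of 10 glial markers 3 were detected: the glutamate transporter SLC1A3 at 77.2 and 81.8 CPM, SOX2 at 11.4 and 10.3 CPM and FABP7 at 3.15 and 1.97 CPM, while GFAP had 8 and 8 counts. ALDH1L1 was at 0.712 and 0.389 CPM. The oligodendrocyte genes OLIG2, MBP and MOG had at most 2 counts in a library, and OLIG1 and the water channel AQP4 had 0. Of 13 forebrain and eye patterning factors, DLX1 at 14.3 and 13.2 CPM and DLX2 at 11.4 and 10.9 CPM were detected, and EMX1, EMX2 and OTX2 had 0 counts. LHX2 and SIX6 stayed below 1 CPM, at 0.432 and 0.415 and at 0.229 and 0.441 CPM, and NKX2-1, OTX1 and PAX6 had at most 3 counts in a library. Of 10 pluripotency factors, LIN28B, which blocks let-7 maturation and is known in neuroblastoma, was at 29.9 and 29.3 CPM and DNMT3B, a DNA methyltransferase, at 17.9 and 16.9 CPM. LIN28A had 0 and 2 counts and NANOG had 0. SALL4 was at 0.432 and 0.441 CPM. POU5F1 and DPPA4 had 0 and 3 and 3 and 0 counts, and TDGF1, ZFP42 and PRDM14 had 0. No member of the 12 liver or of the 12 muscle genes was detected, against 61.1% of all protein-coding genes. Albumin (ALB) had 7 and 3 counts, and MYOD1 and MYOG, the muscle determination factors, had 0. The highest liver gene per kilobase was AHSG, at 0.763 and 0.648 CPM, and APOA1, SERPINA1 and CYP2E1 were at 0.254 and 0.104, at 0 and 0.441 and at 0.203 and 0.285 CPM. APOA2, APOB, TTR, FGB and CYP3A4 had 0 counts. The highest muscle genes per kilobase were desmin (DES), at 0.788 and 0.829 CPM, and myoglobin (MB), at 0.432 and 0.596 CPM. By CPM titin (TTN) led the muscle list, with a mean of 1 CPM or more, but it lay under 1 CPM in replicate 2. The actin ACTA1 was at 0.127 and 0.233 CPM, and MYH1, MYH2, TNNT3, TNNI2 and CKM had 0 counts. MYH7 had 1 and 0.

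Of 58 receptor tyrosine kinases, 35 (60.3%) were detected, a share near the 61.1% of all protein-coding genes. RET, the receptor of the GDNF family that acts in sympathetic and enteric neurons, was at 929 and 889 CPM. Per kilobase RET stood at 132 ± 4.09 CPM, above PTK7, a pseudokinase of planar polarity, at 55.3 ± 2.08 CPM and the collagen receptor DDR2 at 25.3 ± 0.707 CPM (SD, n = 2). Their ranges did not overlap. FGFR1 was at 241 and 238 CPM, IGF1R at 154 and 151 CPM, the ephrin receptors EPHB4 and EPHA2 at 139.9 and 132 and at 95.9 and 96 CPM, EGFR at 104 and 112 CPM and PDGFRA at 98.4 and 106 CPM.

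Receptors with a known part in neuroblastoma were spread over the range. ALK, the kinase that is mutated in familial and sporadic cases, was at 24.4 and 22.4 CPM, and its relative LTK at 2.64 and 3.03 CPM. NTRK2, the BDNF receptor associated with unfavourable tumours, had 0 counts in both libraries. KIT was at 1.04 and 1.97 CPM. Besides NTRK2, 6 receptors had 0 counts in both libraries: MET, the receptor of hepatocyte growth factor, the muscle kinase MUSK, and the ephrin receptors EPHA3, EPHA5, EPHA6 and EPHA7. EPHA8, FLT3 and ERBB4 had at most 3 counts in a library. Barely read members, those at 0 included, made up 17.2% of the kinases, below the 24.7% of all protein-coding genes. Over all protein-coding genes 19.4% had 0 counts in both libraries. NTRK3, the receptor of neurotrophin-3, was at 6.54 and 7.98 CPM.

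**Figure D3:**
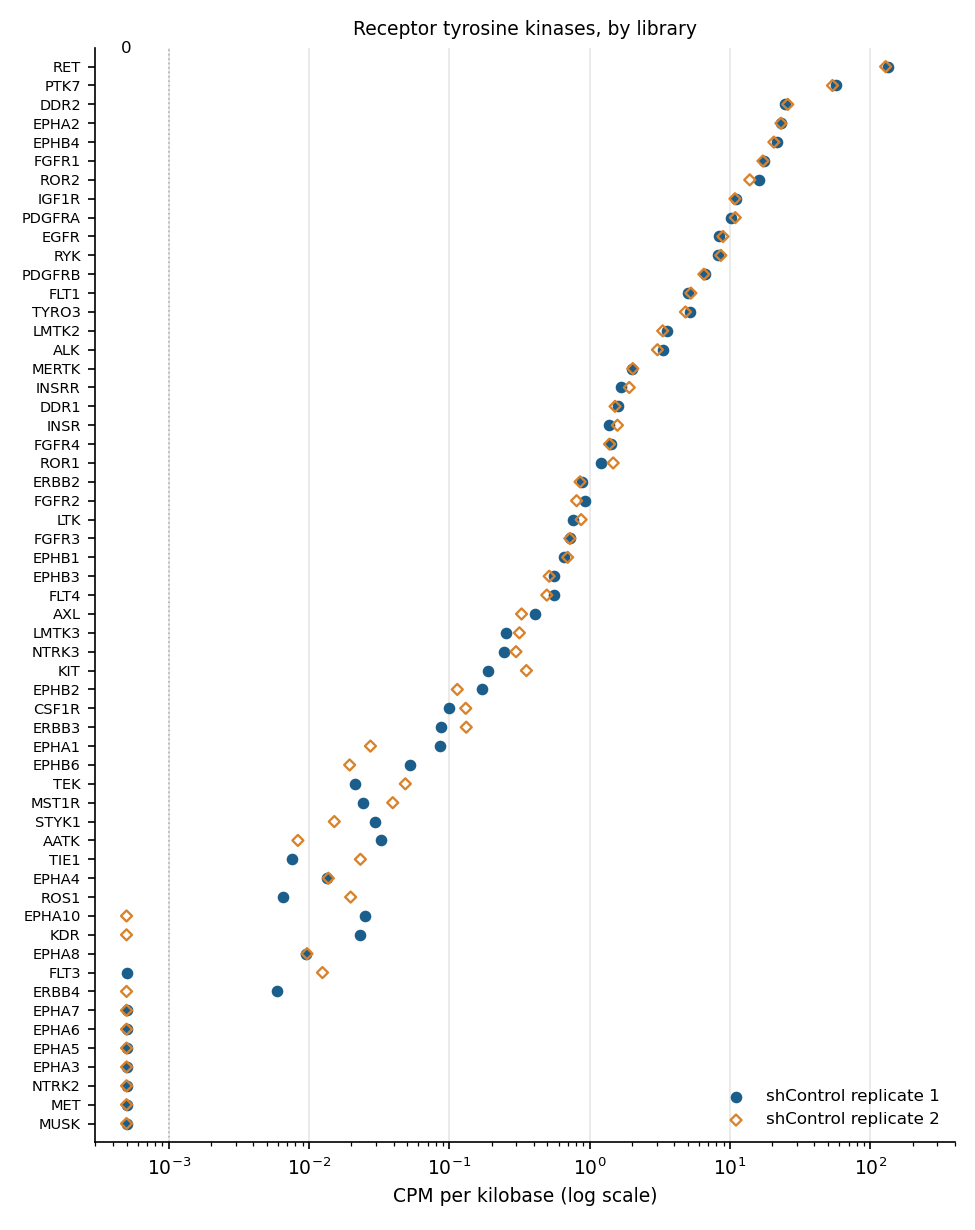
CPM per kilobase (horizontal axis, log scale) of listed receptor tyrosine kinases in shControl replicate 1 (filled circles) and replicate 2 (open diamonds); symbols left of the dotted line stand for 0 counts. RET leads at 132 CPM per kilobase, ALK lies at 3.18 CPM per kilobase, and 7 receptors lie at 0 in both libraries.

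Co-receptors and ligands were read without simple pairing. RET needs a GFRA co-receptor, and of these GFRA2, which binds neurturin, was at 30.3 and 29.1 CPM. GFRA3 was at 0.992 and 1.14 CPM, GFRA1, which binds GDNF, had 8 and 0 counts and GFRA4 had 0. Per kilobase RET stood 25.4 and 25.3 times above GFRA2. Of the matching ligands GDNF had 0 counts and neurturin (NRTN) was at 3.13 and 2.36 CPM. The low-affinity neurotrophin receptor NGFR was at 7.02 and 5.47 CPM, and its ligand BDNF had 3 and 0 counts. The other listed co-receptors included, per kilobase, the syndecan SDC3 at 40.5, the semaphorin receptors NRP2 and NRP1 at 18.7 and 16.4, and SORL1 at 3.61 CPM. Their levels were 294 and 279 CPM for SDC3, 259 and 262 CPM for NRP2, 186 and 193 CPM for NRP1 and 68.8 and 71.4 CPM for SORL1. Of the 10 co-receptors 7 (70%) were detected, near the 61.1% of all protein-coding genes.

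Of 26 ligands, 13 (50%) were detected, against 61.1% of all protein-coding genes. Pleiotrophin (PTN), a heparin-binding growth factor, was at 637 and 655 CPM and its relative midkine (MDK) at 145 and 138 CPM, and PTN took 84.9 and 85.9% of the pair's summed CPM per kilobase. Hepatocyte growth factor (HGF) was at 99.7 and 112 CPM in cells whose MET had 0 counts. FGF1 was at 102 and 105 CPM beside its receptor FGFR1 at 241 and 238 CPM. The ALK ligands ALKAL1 and ALKAL2 had 0 counts, as did IGF1, while IGF2 was at 1.14 and 0.933 CPM, with all of its exon bases shared with overlapping genes. VEGFB was at 33.1 and 32.7 CPM. NTF3 and FGF9 had 0 counts and NTF4 had 2 and 0.

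Receptors of developmental signals differed by family. Of 14 receptors of the TGF-beta, BMP and activin family 13 (92.9%) were detected, against 61.1% of all protein-coding genes. Among them were the BMP receptors BMPR2 at 83.2 and 94.5, BMPR1A at 84 and 89.8 and BMPR1B at 78.3 and 79.7 CPM. Per kilobase ACVR1, a type I receptor of BMPs and activins, was the highest at 13.3 CPM, before BMPR1B at 12.5, the endothelial co-receptor ENG at 8.25, ACVR1B at 7.82 and TGFBR2 at 7.67 CPM, and ACVR1C had 0 counts. Of 15 Frizzled receptors and Wnt co-receptors 12 (80%) were detected, against the same 61.1%. LRP5 was at 125 and 125 CPM, the stem cell receptor LGR5 at 87.1 and 93.1 CPM and FZD7 at 70.6 and 68.4 CPM. FZD2 was at 21.1 and 18.4 CPM, FZD3 at 52.6 and 58.8 CPM and FZD10 had 0 counts. Of 10 Notch receptors and ligands 6 (60%) were detected, near the 61.1% of all protein-coding genes. DLK1, a membrane-bound relative of Notch ligands, was at 118 and 111 CPM and NOTCH3 at 29.3 and 25.5 CPM. These were the highest of the list per kilobase, at 21.5 and 2.92 CPM. DLL3, JAG1 and NOTCH2 followed at 1.19, 0.891 and 0.834 CPM per kilobase. Of 48 nuclear receptors 28 (58.3%) were detected, also near that share. The glucocorticoid receptor NR3C1 was at 50.8 and 54.4 CPM, the retinoic acid receptors RARG, RARA and RARB at 49.8 and 47.1, at 34.5 and 34.1 and at 13.9 and 13.3 CPM, and ESR1, PGR, HNF4A and NR5A1 had 0 counts. Per kilobase the orphan receptors NR2F6 at 21 and ESRRA at 18.3 CPM were the highest, and the clock factor NR1D1 stood at 9.1 CPM. Also at 0 counts were NR1H4, THRB, NR2E1, NR2E3, RXRG and NR0B2, and ESR2, NR1I2 and NR1I3 had at most 3 counts in a library.

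The nicotinic subunits of autonomic ganglia were read. Of 16 nicotinic acetylcholine receptor subunits 7 (43.75%) were detected, against 61.1% of all protein-coding genes. Another 7 were barely read, against 24.7% of all protein-coding genes. The ganglionic subunits CHRNA3, CHRNA5 and CHRNB4, which lie side by side on chromosome 15, were at 159 and 155, at 62 and 59.3 and at 24.7 and 24.3 CPM, and CHRNB2 was at 20.6 and 19.1 CPM. Per kilobase CHRNA3 stood 6.70 and 6.66 times above CHRNB4. Exons of CHRNA3 and another gene overlap 28.4% of CHRNA5 exon bases. The muscle subunits CHRND and CHRNG had 0 counts, as did CHRNA4 of the brain. CHRNA2 and CHRNB3 also had 0, and CHRNA1 and CHRNA6 had 2 and 2 and 2 and 0 counts. CHRNA9 was at 3.03 and 3.27 CPM.

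Other transmitter receptors were sparse. Of 29 glutamate and GABA receptor subunits 6 (20.7%) were detected, against 61.1% of all protein-coding genes, among them the kainate subunits GRIK5 at 19.5 and 19.4 CPM and GRIK2 at 11.3 and 13.4 CPM. GRIN2D was at 2.59 and 2.31 CPM, GABBR1 at 2.82 and 2.05 CPM and GRIK4 at 1.25 and 1.17 CPM. The AMPA subunits GRIA1 and GRIA2, the kainate subunit GRIK1 and the GABA subunits GABRA5 and GABRB2 had 0 counts. GRIN1, GRIN2B, GRIN2C, GRIA3, GABRA2, GABRA4, GABRB1 and GABRG1 had at most 3 counts in a library. Of 36 amine and peptide receptors 10 (27.8%) were detected. The somatostatin receptor SSTR2, a target of radioligand therapy, was at 47.6 and 47.8 CPM, the muscarinic receptor CHRM2 at 35.8 and 39.7 CPM and the PACAP receptor ADCYAP1R1 at 18.2 and 15 CPM. The adrenergic receptors ADRA2B and ADRA2C were at 11.4 and 10.2 and at 4.25 and 4.87 CPM. ADRA1A, ADRB3, CHRM3, NPY1R, NPY2R, NPY5R, SSTR3, SSTR4, OPRM1 and TACR3 had 0 counts, and NPY4R, SSTR5, CHRM5, TACR1 and OPRK1 had at most 3 in a library. The galanin receptor GALR1 had 0 counts, and GALR2 and GALR3 had 5 and 3 and 2 and 3, beside galanin itself at 432 and 439 CPM. Barely read genes made up 15 of the 29 glutamate and GABA subunits and 17 of the 36 amine and peptide receptors, against 24.7% of all protein-coding genes.

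Of 16 surface targets of antibody and cell therapy 13 were detected (81.2%, against 61.1% of all protein-coding genes). CD276 (B7-H3) was at 937 and 878 CPM, CD47 at 124 and 126 CPM, NCAM1 at 122 and 125 CPM and L1CAM at 125 and 114 CPM. The proteoglycan GPC2 was at 7.88 and 6.17 CPM. GD2, the ganglioside used as a target in neuroblastoma, is made by ST8SIA1 and B4GALNT1 in turn. B4GALNT1 was at 68 and 63.1 CPM and ST8SIA1, the GD3 synthase, had 0 counts in both libraries. The ganglioside was not measured. The prostate membrane antigen FOLH1 had 0 counts.

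Antigen presentation and death receptor genes were uneven. B2M, the light chain of MHC class I, was at 285 and 296 CPM, while HLA-B was at 1.09 and 0.829 CPM and HLA-DRA had 0 counts. HLA-C and HLA-E were at 14.6 and 16.1 and at 17.4 and 16.5 CPM, and the immunoproteasome subunit PSMB10, which lies outside the MHC, at 20.1 and 18.3 CPM. A full Ensembl gene set can list MHC genes again on alternate haplotype sequences, which can split their reads. Values of genes in that region, such as the HLA, TAP and PSMB8 or PSMB9 rows, are therefore uncertain. The same limit applies to 1 gene each of the pluripotency, brain glia and glutamate and GABA lists. It also applies to 1 gene each of the receptor tyrosine kinase, Notch, nuclear receptor and telomere lists. PSMB8 and PSMB9, immunoproteasome subunits encoded in the MHC, were at 4.96 and 1.09 and at 6.87 and 2.15 CPM and so over 2-fold apart between the libraries. CASP8, the initiator caspase of death receptors that is often silenced in neuroblastoma with amplified MYCN, was detected at 18.6 and 21.1 CPM. Its adaptors FADD and TRADD were at 78.3 and 69.8 and at 12.7 and 11.2 CPM, its inhibitor CFLAR at 71.8 and 70.0 CPM and the TNF receptor TNFRSF1A at 175 and 167 CPM. TNFRSF10B, a TRAIL receptor, was at 36.9 and 38.3 CPM and FAS at 3.48 and 2.51 CPM, whereas the decoy receptors TNFRSF10C and TNFRSF10D were at 0.407 and 0.389 and at 0.432 and 0.466 CPM.

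Most families of glycolytic isozymes were read mainly from a single gene. Of 32 genes of glucose uptake and glycolysis 24 (75%) were detected, against 61.1% of all protein-coding genes. Their list had summed levels of 20567 and 20019.9 CPM. GAPDH, which makes the first NADH of the pathway, was at 6385 and 6160.5 CPM, ENO1 at 3955 and 3795 CPM and PKM at 3021 and 2960.5 CPM. The triose isomerase TPI1 was at 1048 and 1030.0 CPM. Of each family's summed CPM per kilobase, HK1 took 85.8 and 85.4%, PFKP 84.6 and 84.9%, ALDOA 97.3 and 97.1%, PGAM1 99.99 and 99.98% and ENO1 96.6 and 96.4%. The second members were HK2 with 13.3 and 13.7%, PFKM with 12.2 and 11.8%, ALDOC with 2.7 and 2.89% and the neuronal enolase ENO2 with 2.99 and 3.1%. PFKL took 3.26 and 3.21% and ENO3 0.429 and 0.481%, and HKDC1 took under 1% of the hexokinase sum. PKLR, HK3, LDHC and the liver glucose transporter SLC2A2 had 0 counts. PGK2, the testis form, also had 0, and PGAM2 and GAPDHS had at most 3 counts in a library. SLC2A1, the common glucose transporter, and SLC2A3, the neuronal one, were closer, with 67.6 and 68.7% and 29.3 and 27.9%. The insulin-regulated SLC2A4 took 3.07 and 3.35%.

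Lactate dehydrogenase was read mainly as the B subunit. LDHB was at 1117 and 1099.8 CPM and LDHA, the subunit that is usually abundant in proliferating cells, at 69 and 75.7 CPM. Per kilobase LDHB stood 33.7 and 30.2 times above LDHA, and it took 97.1 and 96.8% of the family's sum. Pseudogene rows named after LDHA held 35 and 28 counts in all. Whether reads that match both LDHA and a pseudogene were dropped was not tested. A gene of GENCODE covers 33.4% of LDHB exon bases. IDs that neither reference table names took 2.09% and 2.03% of all counts, 26 of them over 100 CPM, and whether any of these rows holds reads of a named gene such as LDHA was not tested.

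The citrate cycle was read almost whole, with 29 of 31 genes (93.5%) detected, against 61.1% of all protein-coding genes. MDH2 was at 374 and 363 CPM, IDH2 at 294 and 276 CPM and citrate synthase (CS) at 258 and 257 CPM. The succinate dehydrogenase subunits SDHD and SDHB were at 158 and 174 and at 103 and 107 CPM. PDHA2, the testis form of pyruvate dehydrogenase, had 2 and 0 counts. The pyruvate dehydrogenase kinases, which switch off pyruvate entry, had no dominant member: PDK2, PDK3 and PDK1 took 54.8 and 54.7%, 31 and 29.6% and 13.8 and 15.3% of the family's summed CPM per kilobase, and PDK4 had 6 and 6 counts. Gluconeogenic genes were partial. PCK2, the mitochondrial phosphoenolpyruvate carboxykinase, was at 73.5 and 66.3 CPM, whereas the cytosolic PCK1 and the glucose-6-phosphatase G6PC1 had 0 counts. FBP2 had 0 counts too. Pyruvate carboxylase (PC) was at 119 and 110.2 CPM and the glycogen branching enzyme GBE1 at 37.5 and 36.4 CPM. Of the glycogen phosphorylases, the brain form PYGB took 64.9 and 63.4%, the liver form PYGL 35 and 36.5% and the muscle form PYGM under 1% of the sum.

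All 13 genes of branched-chain amino acid metabolism were detected, against 61.1% of all protein-coding genes. BCAT1 (ENSG00000060982, chr12:24810022-24949459, minus strand, hg38) was at 441 and 456 CPM and the mitochondrial BCAT2 at 21.5 and 21.5 CPM. Per kilobase BCAT1 stood 7.95 and 8.22 times above BCAT2 and took 88.8 and 89.2% of the pair's sum. The uptake transporter SLC7A5 was at 322 and 315 CPM and its partner SLC3A2 at 225 and 208 CPM. The next step, the branched-chain ketoacid dehydrogenase, was lower per kilobase, with BCKDHA at 8.79, BCKDHB at 4.7 and DBT at 1.68 CPM, from levels of 24.5 and 21.2, 18.1 and 20.2 and 18.8 and 19 CPM. DLD, the subunit shared with pyruvate dehydrogenase, was at 119 and 118 CPM. BCKDK, the kinase that inactivates that complex, was at 66.1 and 65.2 CPM and PPM1K, the phosphatase that activates it, at 1.32 and 1.74 CPM. In CPM per kilobase the kinase stood at 16.9 ± 0.163 and the phosphatase at 0.134 ± 0.0257 (SD, n = 2). SLC7A5 at 67.1, SLC3A2 at 41.9 and BCAT1 at 38.1 CPM per kilobase were the 3 highest of the list.

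Most members of nitrogen and one-carbon pathways were detected. Glutamine and glutamate genes were detected in 14 of 19 cases (73.7%), and serine and one-carbon genes in 18 of 21 (85.7%). The share of all protein-coding genes was 61.1%. The glutamine transporters SLC38A2 and SLC1A5 were at 522 and 562 and at 218 and 208 CPM. GLS2, the liver-type glutaminase, had 1 and 8 counts. Glutamate dehydrogenase GLUD1 was at 165 and 166 CPM and the mitochondrial aminotransferase GOT2 at 135 and 132 CPM, and GAD2, which makes GABA, had 0 and 2 counts. PYCR1, which makes proline, was at 247 and 237 CPM and ASNS, which makes asparagine, at 94.6 and 97 CPM. Of the serine pathway PHGDH, its first enzyme, was at 213 and 188 CPM, PSAT1 at 121 and 130.3 CPM and PSPH at 43.6 and 41.5 CPM. AHCY, which clears S-adenosylhomocysteine, was at 301 and 302 CPM, TYMS, which makes thymidylate, at 145 and 139 CPM and the folate enzyme MTHFD2 at 206 and 207 CPM. MAT2A, at 278 and 281 CPM, was the catalytic methionine adenosyltransferase that was read, and the liver form MAT1A had 0 counts. The mitochondrial SHMT2 took 93.2 and 93.5% of the sum with cytosolic SHMT1, and GLDC, which breaks down glycine, was at 0.839 and 0.907 CPM.

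Polyamine genes were detected in 18 of 19 cases (94.7%, against 61.1% of all protein-coding genes), with a list median of 23.4 CPM per kilobase. ODC1, described above at 399 and 392 CPM, was followed by the spermidine and spermine synthases SRM at 177 and 169 and SMS at 177 and 183 CPM. OAZ1, the antizyme that targets ODC1 for degradation, was at 1077 and 1057 CPM, and EIF5A, the protein that carries the spermidine-derived hypusine, at 477 and 469 CPM. SAT1, which starts polyamine breakdown, was at 78.7 and 74.3 CPM. Per kilobase OAZ1 at 311 ± 3.97 CPM stood above ODC1 at 133 ± 1.79 CPM (SD, n = 2).

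Arginine synthesis was read without the urea cycle. ASS1, which joins citrulline and aspartate, was at 1433 and 1378 CPM and ranked 48th of the protein-coding genes per kilobase, and ASL, which releases arginine, was at 122 and 109.7 CPM. OTC and ARG1, the liver enzymes of the cycle, had 0 counts and CPS1 had 5 and 3. The mitochondrial arginase ARG2 was at 15.9 and 13.5 CPM. The arginine transporters SLC7A1 and SLC7A2 were at 68.4 and 72.5 and at 31.8 and 32.5 CPM, and NOS1 had 0 counts. In the creatine pathway GAMT, the second enzyme, was at 66.9 and 56 CPM and GATM, the first, at 1.12 and 0.726 CPM, so that GAMT stood 165 and 213 times above GATM per kilobase. The brain-type creatine kinase CKB took 71.6 and 69.8% of its family's sum. CKMT1A and CKMT1B are near-identical copies, and their separate values are uncertain. The creatine transporter SLC6A8 was at 50.5 and 50.2 CPM, and of the muscle kinases CKMT2 had 4 and 8 counts and CKM 0.

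Lipid synthesis was detected in 24 of 25 genes (96%, against 61.1% of all protein-coding genes). ACLY, which makes cytosolic acetyl-CoA from citrate, was at 853 and 847 CPM, the desaturase SCD at 625 and 638 CPM and fatty acid synthase (FASN) at 557 and 518 CPM. The elongase ELOVL5 was at 311 and 339.8 CPM. Of the sterol pathway, FDFT1 was at 402 and 391 CPM. FDPS, which makes farnesyl diphosphate, was at 312 and 293 CPM. For fatty acid and ketone oxidation 18 of 20 genes (90%) were detected. HADHA of the mitochondrial trifunctional protein was at 498 and 478 CPM. Its partner HADHB was at 161 and 159 CPM, ECHS1 at 108 and 104 CPM, ACADVL at 121 and 113 CPM and ACAT1 at 123 and 127 CPM, and ACADL had 0 counts. CPT1A took 72.7 and 70.4% of the CPT1 family's summed CPM per kilobase. The brain form CPT1C took 16.1 and 17.1% and the muscle form CPT1B 11.2 and 12.4%. OXCT1, which uses ketone bodies, was at 62.5 and 59.1 CPM.

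Over 32 families of isozymes and paralogues, the leading member took over 90% of the summed CPM per kilobase in 19 and over 75% in 25. The leader was the same in both libraries in all 32. Among regulators of the cell cycle, CCND1 took 94.7 and 94.9% of the D-type cyclins' sum at 855 and 896 CPM, and CCND2 had 0 counts in both libraries. CCND3 took the other 5.28 and 5.14%. In the GATA family GATA6 took 2.61 and 2.64%, GATA4 and GATA5 under 1% and GATA1 had 0 counts. Of the AP-2 factors TFAP2C took 2.05 and 2.19% and TFAP2E 1.94 and 1.78%, and TFAP2D had 0 counts.

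**Figure D4:**
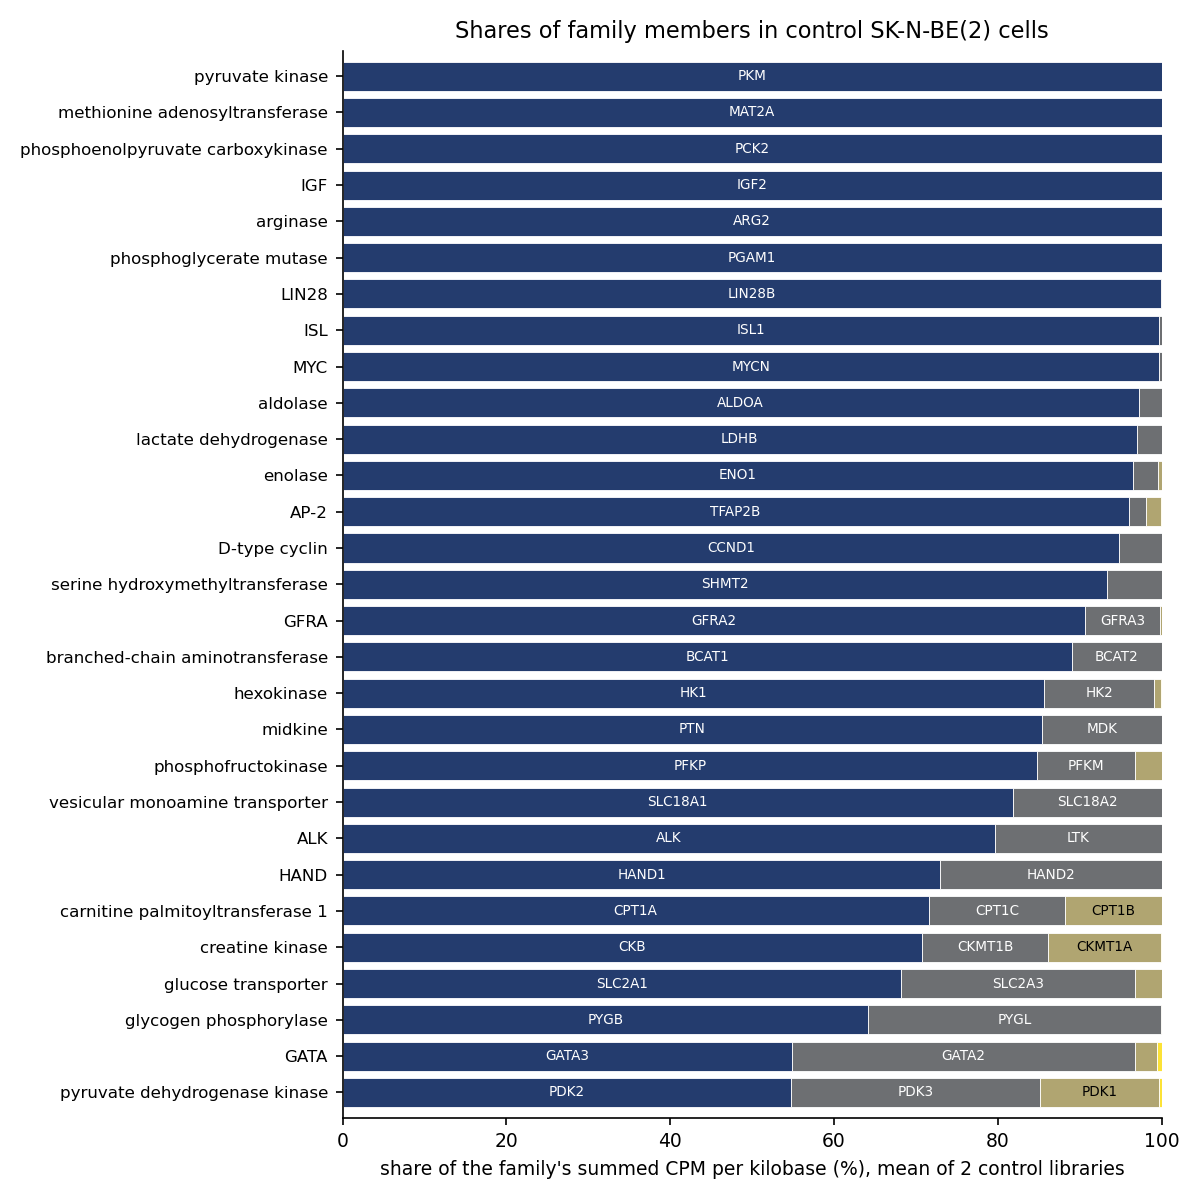
Stacked bars give the share of each member (colours, with names where a share exceeds 9%) in its family's summed CPM per kilobase, in percent, as the mean of the 2 control libraries. A single gene takes over 90% in 16 of the 29 families drawn, and PDK2 at 54.8% and GATA3 at 54.9% are the lowest leading shares.

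HOX genes were read from 2 of the 4 clusters. Of 39 HOX genes 10 (25.6%) were detected, against 61.1% of all protein-coding genes. They were 6 of HOXC and 4 of HOXD, with none of HOXA or HOXB. The read HOXC genes formed a block, HOXC4 at 17.5 and 21.6, HOXC5 at 13.9 and 18.7, HOXC6 at 17.5 and 16.6, HOXC8 at 24.8 and 26.6, HOXC9 at 19.9 and 20.7 and HOXC10 at 23.2 and 25.6 CPM. HOXC11, the next gene, had 5 and 2 counts, HOXC12 had 0 and HOXC13 had 2 and 0. In HOXD, HOXD8 was at 12.3 and 12.9 CPM, HOXD9 at 9.31 and 8.68 CPM and HOXD3 at 4.5 and 4.69 CPM, and HOXD10 to HOXD13 stayed under 1 CPM. HOX genes give position along the body axis, and their clusters are opened in order. The highest HOXA gene was HOXA13 at 0.381 and 0.441 CPM. HOXC4, HOXC5, HOXC6 and HOXC9 share exon bases with neighbouring genes in the annotation, so their separate values are less certain than that of HOXC8, which shares none.

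**Figure D5:**
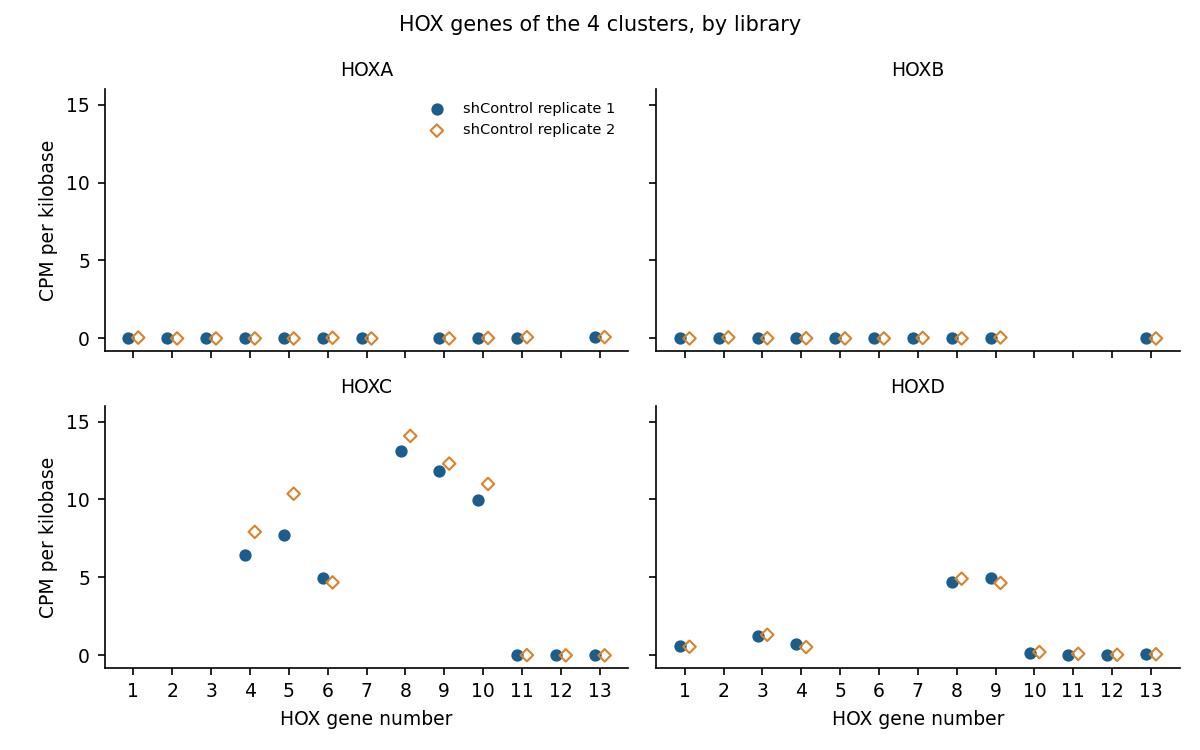
CPM per kilobase (vertical axis) of the HOX genes of each cluster by gene number (horizontal axis) in shControl replicate 1 (filled circles) and replicate 2 (open diamonds). HOXC4 to HOXC10 and HOXD3, HOXD8 and HOXD9 stand above the base line in both libraries, and all HOXA and HOXB genes lie near 0.

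Large families with roles in other tissues were mostly or wholly undetected. None of 376 olfactory receptor genes was detected and 373 were barely read, 362 of them at 0 counts in both libraries. None of 94 keratin-associated protein genes, 45 defensins or 24 bitter taste receptors was detected. Of 50 keratins 9 (18%) were detected, against 61.1% of all protein-coding genes. Of 26 MAGE genes of the A to C groups, testis genes that many tumours read, MAGEA4 alone was detected. In contrast, all 78 mitochondrial ribosomal protein genes and all 37 complex I subunits were detected, as were 412 of 476 ZNF zinc finger genes (86.6%). Collagens, with 22 of 44 detected (50%), lay below the 61.1% of all protein-coding genes.

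Of 20 genes listed for silencing in neuroblastoma 14 (70%) were detected, a share near the 61.1% of all protein-coding genes. CD44, at 1132 and 1134 CPM, CADM1, an adhesion protein of chromosome arm 11q, at 183 and 186 CPM and KIF1B and CAMTA1 of 1p, at 113 and 120.0 and at 34.2 and 36.9 CPM, were among them. CHD5, the chromatin remodeller of 1p, was at 1.17 and 1.37 CPM and RASSF1 at 17.9 and 17.6 CPM. CDKN2A, which encodes p16 and ARF, was at 21.9 and 19.7 CPM and CDKN2B at 0.89 and 0.518 CPM. MGMT, which repairs alkylated guanine, was at 31.5 and 31.5 CPM and the tumour antigen PRAME at 30.1 and 24.7 CPM. How often tumours silence each of these genes, PRAME among them, was not assessed here. TP73 was at 0.407 and 0.466 CPM. All 14 telomere maintenance genes were detected, with the telomerase subunit TERT at 6.31 and 5.08 CPM, dyskerin (DKC1) at 172 and 175 CPM and ATRX, which restrains recombination at telomeres, at 52.8 and 57.4 CPM. Of the small proteins of the telomerase ribonucleoprotein, per kilobase, NOP10 stood at 193, NHP2 at 112 and GAR1 at 25 CPM, and the telomere protein TERF2IP at 31.9 CPM.

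Imprinted genes were detected in 14 of 20 cases (70%), near the 61.1% of all protein-coding genes. In such genes some or all transcripts are read from the copy of a single parent, in some or all tissues. GNAS was at 1575 and 1620.5 CPM, PEG10 at 405 and 420.1 CPM and SNRPN at 148 and 146 CPM. At the DLK1 and MEG3 domain both the paternal DLK1, at 118 and 111 CPM, and the maternal RNA MEG3, at 96.5 and 92.7 CPM, were read. At the domain of IGF2, the maternal RNA H19 was at 72.6 and 74 CPM and the paternal IGF2 at 1.14 and 0.933 CPM. MEST had 8 and 10 counts. PHLDA2, a maternal growth restrainer, was at 55.8 and 50.9 CPM, and RTL1 had 0 and 3 counts. Alleles were not distinguished, nor were the separate transcripts of a gene such as GNAS.

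The 2 libraries differed little at most genes. Across 14239 detected genes, which are not independent replicates, Pearson's r of log2 CPM was 0.994 and Spearman's rho of CPM 0.996, and the median coefficient of variation was 4.35%. Of 14555 genes with a mean of 1 CPM or more, 166 (1.14%) were over 2-fold apart. Of 526 list members at that level 4 were: RBFOX3, PSMB8, PSMB9 and TTN. Of 59 genes over 2-fold apart with a mean of at least 5 CPM, the 5 farthest apart were BIVM-ERCC5, at 0 and 37 CPM, AC008878.3, at 21.1 and 0 CPM, ENSG00000257390, at 0.28 and 17.9 CPM, BLOC1S5-TXNDC5, at 87.8 and 1.92 CPM, and ENSG00000255508, at 437 and 28.4 CPM. Each shares exons with other genes, and summed with those the libraries differed by 1.01, 1.06, 1.01, 1.02 and 1.03 times, in that order. Some sums lie far above the gene itself, such as 288 and 284 CPM for ENSG00000257390. A sum of that kind would be near equal in any case.

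Exon overlap was counted for the 107 of the 166 genes that GENCODE 29 annotates, and the other 59 were not assessed. It was present in 84 of 107 annotated genes over 2-fold apart (78.5%) and in 6775 of 13580 within 2-fold (49.9%). At a mean of at least 5 CPM, 29 of 36 annotated genes over 2-fold apart overlapped another gene. In 25 of the 29 the sum with the overlapping genes was within 1.5-fold. Where the overlapping genes are far higher, that sum stays near equal whatever the gene does. HSPE1-MOB4, at 11.9 and 2.95 CPM, entered a sum of 379 and 370 CPM. Such sums cannot show whether reads moved between genes, which was not tested. Inside the MHC region on chromosome 6, 9 of 88 protein-coding genes with a mean of 1 CPM or more were over 2-fold apart (10.2%), against 82 of 12083 elsewhere (0.679%). What part alternate copies of MHC genes play in this was not tested.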

How the data were processed

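TRIzol RNA of SK-N-BE(2) cells went into Illumina TruSeq libraries, per the labels' protocols. The submitters' processing notes name HISAT2 2.2.0, StringTie and hg38. The annotation release, the way reads were counted and the use of strand are not known here. The authors deposited raw counts for each Ensembl gene as whole numbers in 64252 rows, and the 2 shControl columns were matched to their labels by name. Of the IDs, 56105 were in the name table and 56591 in GENCODE release 29, and 7661 were in neither.

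CPM was computed as counts over the library total with Python 3.11.15, numpy 2.4.6 and pandas 2.3.3, and CPM per kilobase from merged exons of GENCODE 29. Scaling factors for the alternatives (TMM over 2 or 6 libraries, RLE) came from edgeR 4.0.16 in R 4.3.3. No statistical test was run, because a single group of 2 libraries is described. The code that calls levels was checked on simulated counts.

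The members, the 46 lists (816 symbols, 1 not found) and the 32 families were chosen with earlier results of these data known. The rule named MYCN, HAND2 and BCAT1, the 10 genes of highest mean CPM, up to 5 members of each list by CPM per kilobase with those at 0 or at most 3 counts, every family member, and the 5 genes farthest apart at a mean of at least 5 CPM. Some genes that the rule names are not reported here or drawn in the plots, but stay in the counts over lists and families. Other list members are named for their known role, after their values were seen. Promoters came from RefSeq on GRCh38.p14.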

Additional observations from a re-analysis of the deposited data

How the results depend on the processing

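The count of detected genes stayed within 13055 (threshold of 2 CPM) and 15631 (0.5 CPM) of its 14239, and was 14553 or 14525 in a single library. The share of the 100 most abundant genes was 17.3% without mitochondrial genes and 29.4% per kilobase. Genes over 2-fold apart numbered 59 at a mean of at least 5 CPM, 3373 with no filter and a prior count of 2, and 483 at a fold of 1.5. Of 276 recomputed list percentages 268 kept their value within 1.5-fold. The others were 16.7% for Schwann cell and melanocyte markers and 13.8% for glutamate and GABA subunits at 2 CPM; 8.33% for liver genes and 16.7% for muscle genes at 0.5 CPM, where both were 0 at 1 CPM; 50% for brain glia, 33.3% for forebrain factors and 25% for nicotinic subunits without members that share exons; and muscle genes without replicate 2, at 8.33% (without a replicate, from 0% to 8.33%). Outside these lists, clustered protocadherins were at 30.2% at 2 CPM. Under TMM over all 6 libraries MYCN, HAND2 and BCAT1 were at 2267, 391 and 468 CPM. Leading shares of families moved with the length used: BCAT1 held 83.0% by the longest transcript and 95.4% with no length correction, and PDK2 64.7% and 44.9%. No paired analysis was possible because the results describe a single group and come from no test. Promoter features by level were not compared, since 77.4% of protein-coding genes had a promoter in the table. At this depth a gene under 0.0777 CPM may go unread.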

Other observations

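Several genes among the 100 most abundant belong to none of the lists, and they are named here after their values were seen. RGS5, a regulator of G protein signalling best known from pericytes, was at 2958 and 3260.2 CPM, the 10th of the protein-coding genes by CPM and the 49th per kilobase, and its relative RGS4 at 838 and 891 CPM. DKK1, a secreted inhibitor of Wnt co-receptors, was at 940.3 and 969 CPM, in cells that also read the co-receptors LRP5 and LRP6, at 125 and 125 and at 28.3 and 30.9 CPM. The galectin LGALS1 was at 906 and 929 CPM, the thymosin TMSB10 at 1721 and 1783 CPM, FSTL1 at 994 and 1068 CPM and the collagen chaperone SERPINH1 at 1041 and 994 CPM. Per kilobase TMSB10, at 3532 CPM, stood above GAPDH at 2104 CPM.

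Long non-coding RNAs of high CPM included host genes of small nucleolar RNAs. SNHG29 was at 318 and 312 CPM, SNHG16 at 259 and 266 CPM, SNHG5 at 130.3 and 125 CPM, SNHG1 at 123 and 124 CPM and GAS5 at 106 and 106 CPM. NORAD, which binds PUMILIO proteins, was at 271 and 286 CPM and NEAT1, the scaffold of paraspeckles, at 86.1 and 89.2 CPM. HAND2-AS1, described beside HAND2, was the seventh of these RNAs by CPM.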
